A study of Mus musculus with 12 samples.

Results

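Ngfr, Scn4b, Cdh23, Bst1, Exoc3l4 and Rasal1 are 6 of the 23366 gene symbols measured in mouse pre-T cells, chosen because their transcripts were lower when Notch signalling was blocked and lower when the histone deacetylase HDAC3 was depleted. The choice used the measured values themselves: the genes were picked for a fall with the Notch pathway inhibitor and with Hdac3 knockdown, most of them also for a fall with an HDAC inhibitor. Their values in all 3 comparisons are therefore given as a description, without a test. Tests are given for genes that did not enter the choice. These are the genes beside the 6 on the chromosome and genes listed with them by function or family.

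Expression was measured by sequencing ribosomal RNA-depleted total RNA of Beko cells, a mouse pre-T cell line, in 12 libraries that form 3 experiments of 2 treated and 2 control libraries. DAPT, an inhibitor of the γ-secretase that releases the Notch intracellular domain, was given at 10 µg/ml for 24 h and set against DMSO. Apicidin, an HDAC inhibitor, was given at 0.01 µg/ml for 24 h and set against its own DMSO libraries. In the third experiment, plasmids expressing a short hairpin RNA against Hdac3 (shHdac3) were set against plasmids with a scrambled hairpin (scrambled), 96 h after puromycin. The labels give both knockdown libraries the same hairpin name, Sh1, and name no other hairpin against Hdac3. Effects of that hairpin on other genes therefore cannot be told apart from those of the knockdown. The labels do not say whether the libraries of a group came from separate cultures, so that p-values measure the spread between libraries, which may be technical. The purpose, as the series states it, was to find Notch target genes and to ask what HDAC3 does at them.

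Notch receptors are cleaved on ligand binding, and the freed intracellular domain joins the DNA-binding protein RBPJ to activate genes such as Dtx1, Hes1 and the pre-T cell receptor gene Ptcra. HDAC3 removes acetyl groups from histones and is best known as the enzyme of the NCoR and SMRT corepressor complexes. The 6 genes belong to no single pathway: 4 encode proteins of the cell surface (a neurotrophin receptor, a sodium channel subunit, a cadherin and an enzyme that converts NAD), 1 encodes a relative of an exocyst subunit and 1 a regulator of Ras.

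Depth, counted as reads in genes, was 37237080 to 42815304 per library for DAPT and its DMSO, 21766984 to 29652001 for apicidin and its DMSO, and 24673559 to 29004315 for the hairpins. Hdac3 itself had 774 and 819 normalized reads with shHdac3, against 2012 and 1930 with scrambled (log2 fold change -1.31 ± 0.05 SE, limma adjusted p = 7.6e-25). The defining pre-T markers were all measured, with summed levels of 47490 to 122659 normalized reads per library. The 4 mast cell markers were at 0 in every library and B cell markers summed to at most 23.5. Erythroid markers summed to at most 48.1, all from Klf1, which passed in no comparison. The B cell marker Cd79b fell with shHdac3 (-2.33 ± 0.60, limma adjusted p = 0.00152), to 2.06 and 2.09 reads against 14.3 and 14.5 with scrambled. The pre-T sum was lower in every treated library than in its controls, with 87758 and 89015 for DAPT against 118617 and 122659 for DMSO, 47490 and 47573 for apicidin against 72946 and 73219 for DMSO, and 55856 and 54577 for shHdac3 against 78661 and 79290 for the scrambled hairpin. Of the 7 pre-T markers, which include the Notch-dependent genes Ptcra and Il2ra, 6 were lower and 1 higher with DAPT, 6 were lower with apicidin and 5 with shHdac3. Of the 5 myeloid markers 2 were tested and 1 rose with DAPT (sums of 663 and 583 against 359 and 373 with DMSO) and with apicidin (886 and 832 against 622 and 607). Of the 5 neuronal markers 2 were tested, and Tubb3 rose in all 3 comparisons while Syt1 was at 0 in every library. Of the 5 stromal markers, Col1a2 rose (1.52) and Pdgfrb fell (-0.16) with DAPT (sums of 1161 and 1102 against 1213 and 1201 with DMSO), both rose with apicidin (sums of 1929 and 1894 against 1460.0 and 1460.1 with DMSO) and both rose and Col1a1 fell with shHdac3 (1989 and 2011 against 1222 and 1230.4 with the scrambled hairpin). The part of these shifts in the results was not tested. Genes called lower at an adjusted p under 0.05 were 23.1% of the 12840 tested with DAPT, 19.9% of the 12463 tested with apicidin and 19.4% of the 12482 tested with shHdac3, so a call alone is common in these data. In the hairpin experiment 53.8% of calls were higher, and 43.5% with upper-quartile scaling; in the DAPT experiment the shares were 46.6% and 56.5%, and lower calls numbered 2962 and 2430.

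All 6 genes were called lower in all 3 comparisons, as were 275 of the 12204 genes tested in all 3 (2.25%), and in none of the 18 comparisons of a gene did the treated and control libraries overlap. Both treated libraries lay below both controls for 35.5% of all tested genes with DAPT, 34.6% with apicidin and 33.6% with shHdac3. Since the genes were chosen on these contrasts, nothing is read from either count. Levels below are reads normalized within each experiment, given for both libraries of a group, and the fold changes are treated over control on the log2(value + 1) scale with the SE of the limma fit. In bulk RNA, fewer cells that express a gene and less RNA per cell cannot be told apart.

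**Figure D1:**
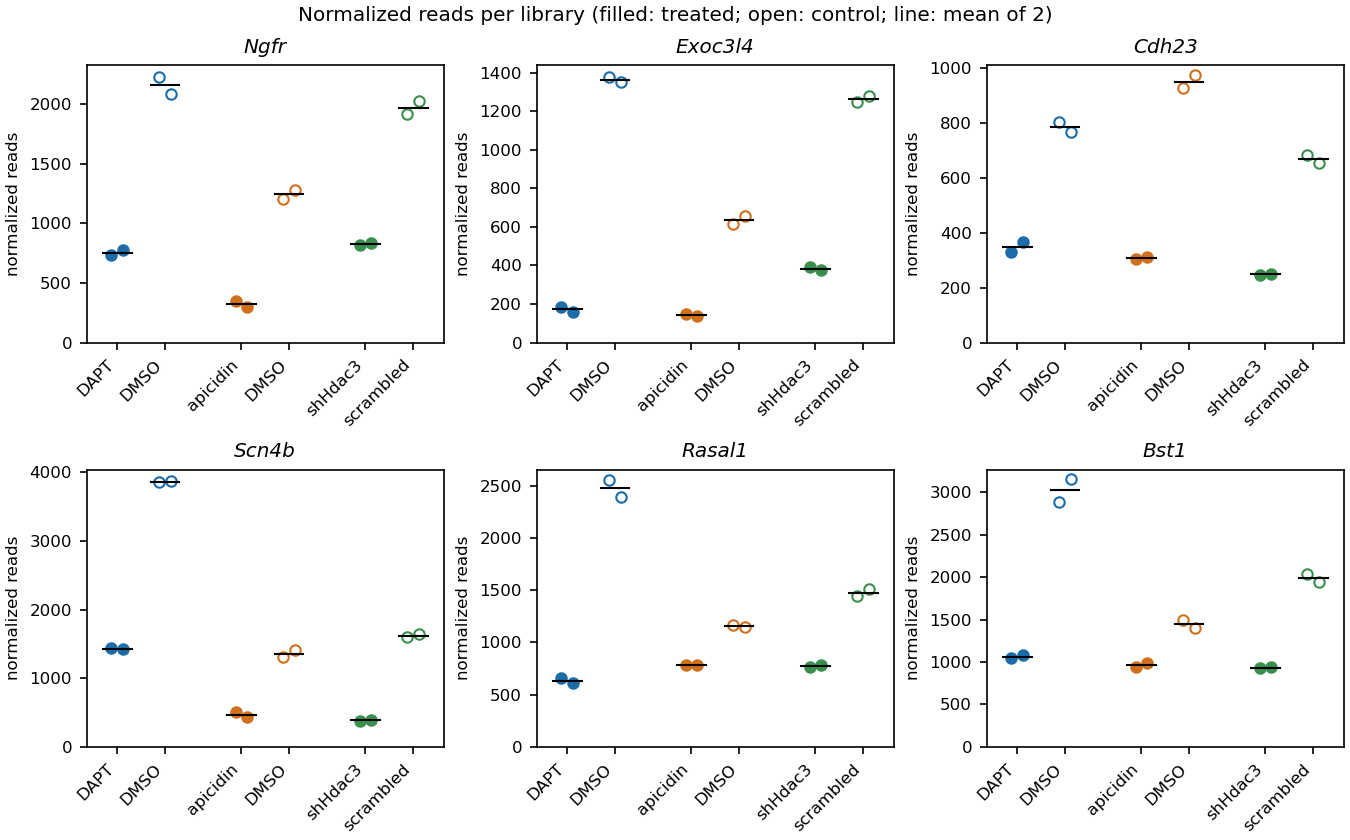
Normalized reads of each gene (vertical axis, linear, from 0) in every library, with treated libraries as filled and control libraries as open circles and a line at the mean of 2. In every panel both treated libraries lie below both controls of the same experiment; as a ratio of means, the gap is widest for Exoc3l4 with DAPT (186 and 160.1 against 1378 and 1353) and narrowest for Rasal1 with apicidin (786 and 779 against 1167 and 1145).

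Ngfr encodes the neurotrophin receptor p75, a death-domain receptor of the tumour necrosis factor receptor family that binds neurotrophins. It had 731 and 772 normalized reads with DAPT, against 2227 and 2083 with DMSO. It had 347 and 298 with apicidin, against 1202 and 1281 with DMSO. It had 817 and 836 with shHdac3, against 1917 and 2022 with scrambled. The transcript was thus reduced most by apicidin, to 26.0% of control (-1.94 ± 0.08), less by DAPT, to 34.9% (-1.52 ± 0.05), and least by the hairpin, to 41.9% (-1.25 ± 0.05). The difference between the apicidin and shHdac3 log2 fold changes was -0.69 ± 0.09.

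The promoter of Ngfr is shown because it was the only one of the available member promoters to hold any of the motifs searched. These are the 250 bases before the annotated start, on the minus strand at chr11:95587699-95587948 of GRCm38.p6 (RefSeq), with the E-box letters in capitals.
Ngfr: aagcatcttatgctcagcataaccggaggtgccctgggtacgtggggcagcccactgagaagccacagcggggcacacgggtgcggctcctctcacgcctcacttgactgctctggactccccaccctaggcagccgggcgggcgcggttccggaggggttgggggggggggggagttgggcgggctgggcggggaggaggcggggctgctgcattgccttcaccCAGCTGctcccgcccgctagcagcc
The E-box occupies bases 25 to 20 before the start, in a window of 70.4% G and C, against a median of 52.4% over all promoter windows.

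Scn4b encodes the beta 4 subunit of voltage-gated sodium channels, a single-pass membrane protein that modifies channel gating in nerve and muscle and has an immunoglobulin-like adhesion domain. It had 1436 and 1423 normalized reads with DAPT, against 3864 and 3868 with DMSO. Apicidin left 500.0 and 429 reads, against 1308 and 1408 with DMSO. The hairpin left 382 and 395, against 1597 and 1643 with the scrambled hairpin. Scn4b was the member with the deepest reduction under Hdac3 knockdown, to 24.0% of control (-2.06 ± 0.06), while DAPT and apicidin left 37.0% and 34.2% (-1.43 ± 0.04 and -1.55 ± 0.07). The DAPT log2 fold change exceeded that of shHdac3 by 0.62 ± 0.08, meaning a smaller fall with DAPT, and that of apicidin by 0.11 ± 0.08.

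The promoter of Scn4b is shown as that of the gene reduced most by the hairpin. It covers the 250 bases before the start on the plus strand at chr9:45138374-45138623 of GRCm38.p6 (RefSeq), holds none of the 3 motifs and is in lower case throughout.
Scn4b: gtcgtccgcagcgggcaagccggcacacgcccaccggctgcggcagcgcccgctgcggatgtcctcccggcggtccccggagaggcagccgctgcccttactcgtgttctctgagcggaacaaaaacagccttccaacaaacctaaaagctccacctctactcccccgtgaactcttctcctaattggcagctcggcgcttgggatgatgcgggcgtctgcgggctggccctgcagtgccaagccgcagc
Its G and C content is 66.0%.

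Cdh23 encodes cadherin 23, an unusually long cadherin that forms the upper part of the tip links between stereocilia of inner ear hair cells. It had 328 and 367 normalized reads with DAPT, against 802 and 767 with DMSO. It had 303 and 312 with apicidin, against 926 and 972 with DMSO. It had 245 and 250.4 with shHdac3, against 682 and 652 with scrambled. The 6 treated libraries all fell between 245 and 367 while the controls of the 3 experiments spread from 652 to 972, on 3 separate normalizations. Cdh23 had the smallest reduction of the 6 with DAPT, to 44.3% of control (-1.17 ± 0.08), and was reduced to 32.4% with apicidin (-1.62 ± 0.07) and to 37.1% with shHdac3 (-1.43 ± 0.08).

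Bst1 encodes CD157, a surface enzyme anchored by a lipid that makes cyclic ADP-ribose from NAD and was first described on bone marrow stromal cells. It had 1048 and 1077 normalized reads with DAPT, against 2890.1 and 3159 with DMSO. It had 946 and 991 with apicidin, against 1494 and 1406 with DMSO. It had 932 and 937 with shHdac3, against 2042 and 1941 with scrambled. Bst1 was reduced to 35.1% of control by DAPT (-1.51 ± 0.05), to 46.9% by the hairpin (-1.09 ± 0.05) and to only 66.8% by apicidin (-0.58 ± 0.05). In the GENCODE M21 annotation, 98 bases of its exons (2.95%) overlap its neighbour Fbxl5 on the opposite strand. Whether counting used strand is not given in the sources used here, and without strand reads over that stretch cannot be told apart.

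Exoc3l4 encodes a protein related in sequence to EXOC3, a subunit of the exocyst that tethers secretory vesicles to the plasma membrane. It had 186 and 160.1 normalized reads with DAPT, against 1378 and 1353 with DMSO. It had 149 and 138 with apicidin, against 615 and 657 with DMSO. It had 392 and 375 with shHdac3, against 1251 and 1282 with scrambled. Exoc3l4 had the deepest reduction of the 6 with DAPT, to 12.7% of control (-2.98 ± 0.08), and was left at 22.6% with apicidin (-2.14 ± 0.09) and at 30.2% with shHdac3 (-1.72 ± 0.07). The DAPT log2 fold change differed from that of shHdac3 by -1.25 ± 0.11. In GENCODE M21, 888 bases of its exons (15.7%) overlap the antisense gene Gm10425, so the same limit on strand applies to a larger share of this gene.

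The promoter of Exoc3l4 is shown as that of the gene reduced most by DAPT. RefSeq holds a pair of overlapping windows for it, and the first covers the 250 bases before the start on the plus strand at chr12:111417180-111417429 of GRCm38.p6, again with none of the 3 motifs.
Exoc3l4: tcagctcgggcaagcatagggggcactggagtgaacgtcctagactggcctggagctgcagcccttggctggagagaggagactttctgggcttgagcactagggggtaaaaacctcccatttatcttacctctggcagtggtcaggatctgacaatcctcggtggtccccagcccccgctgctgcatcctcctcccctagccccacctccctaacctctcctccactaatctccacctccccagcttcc
Its G and C content is 59.6%.

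Rasal1 encodes a GTPase-activating protein with C2 domains that switches off Ras in response to calcium. It had 656 and 612 normalized reads with DAPT, against 2561 and 2397 with DMSO. It had 786 and 779 with apicidin, against 1167 and 1145 with DMSO. It had 764 and 780.4 with shHdac3, against 1443 and 1511 with scrambled. DAPT left 25.6% of control (-1.96 ± 0.06), the hairpin 52.3% (-0.93 ± 0.06) and apicidin 67.7% (-0.56 ± 0.05). The difference between the DAPT and apicidin log2 fold changes was -1.40 ± 0.08, the widest gap between any 2 comparisons of a member.

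**Figure D2:**
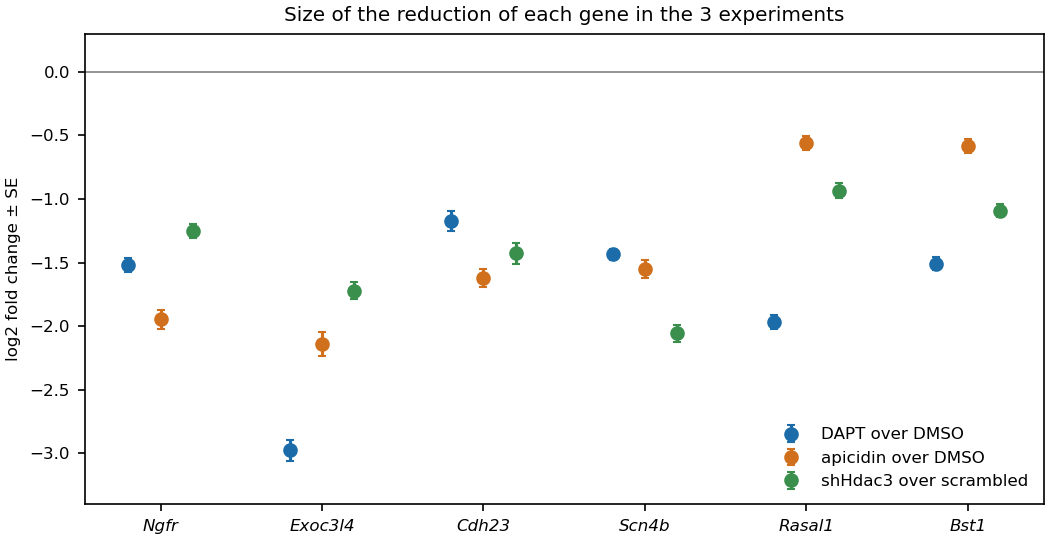
Log2 fold change (vertical axis) of each gene with DAPT over DMSO, apicidin over DMSO and shHdac3 over scrambled, with bars of 1 SE of the limma fit (n = 2 libraries a group). All 18 points lie below 0, from -2.98 for Exoc3l4 with DAPT to -0.56 for Rasal1 with apicidin, and Rasal1 and Bst1 stand closest to 0 with apicidin.

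The order of the 6 genes differed between treatments. With DAPT the fold reduction ran from 7.87 for Exoc3l4 through 3.90 for Rasal1 to 2.87 for Ngfr, 2.84 for Bst1, 2.70 for Scn4b and 2.26 for Cdh23. Ngfr, Bst1 and Scn4b could not be ordered, since the 4 treated-to-control ratios of each overlapped those of the next. With apicidin Exoc3l4 and Ngfr came first at 4.41 and 3.85 with overlapping ratios, followed by Cdh23 and Scn4b at 3.08 and 2.93, also overlapping, and by Bst1 and Rasal1 at 1.496 and 1.476, again overlapping. With shHdac3 no neighbours in the order overlapped: the fold reduction was 4.16 for Scn4b, 3.30 for Exoc3l4, 2.69 for Cdh23, 2.38 for Ngfr, 2.13 for Bst1 and 1.91 for Rasal1. With DAPT 6 of the 6 genes were reduced by 2-fold or more, with apicidin 4 and with shHdac3 5, where 0.966%, 1.24% and 2.64% of all tested genes were called lower by that much. Ngfr, Exoc3l4, Cdh23 and Scn4b were reduced by 2-fold or more in all 3 comparisons, a property of 17 of the 12204 genes tested in all 3 (0.139%). Rasal1 and Bst1 missed it through apicidin, and Rasal1 also through shHdac3.

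Over all tested genes, Exoc3l4 was the gene with rank 11 by size of fall with DAPT, rank 11 with apicidin and rank 59 with shHdac3. Ngfr had ranks 60, 17 and 179, Cdh23 ranks 105, 37 and 109, and Scn4b ranks 69, 41 and 19 in the same order of treatments. Rasal1 had ranks 39, 622 and 410, and Bst1 ranks 63, 573 and 273. The 461 genes called lower both with DAPT and with shHdac3 (3.72% of 12388 tested in both) include 438 with a mean of 50 or more in both experiments. Ranked by the smaller of their 2 falls, the 6 genes stood at places 3, 5, 6, 8, 10 and 19 among those 438. Between and around them stood Elovl3, P2rx1, Clu, Ptcra, Ctla4 and Adm, so the 6 are a selection from the top of this ranking and not its whole. Rasal1, the last of them, had a smaller fall of -0.93 (log2). In the ranking of all 461 it stood between Pgpep1l, with a smaller fall of -0.94, and Tmem184a, with -0.93.

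**Figure D3:**
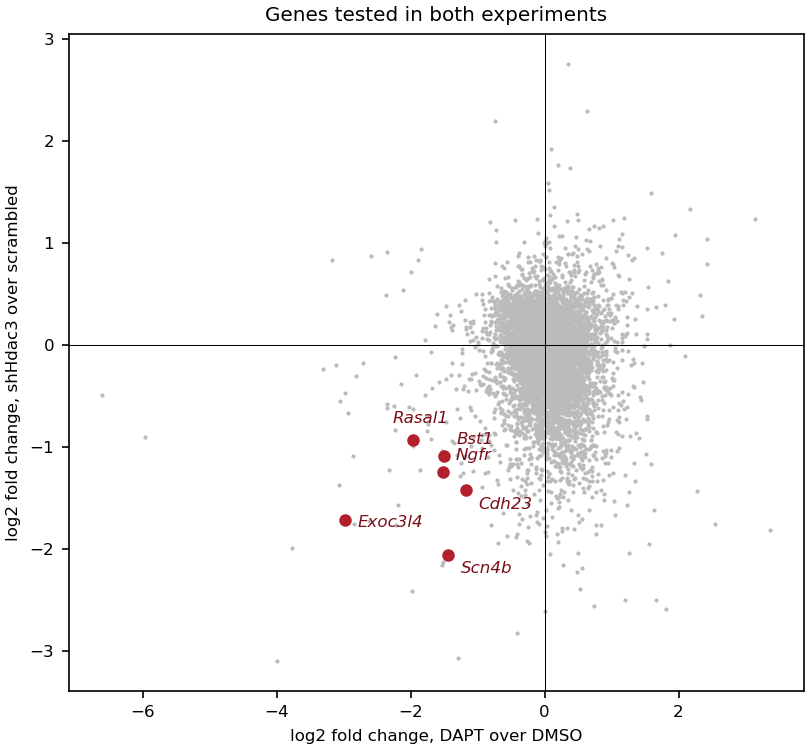
Log2 fold change with shHdac3 over scrambled (vertical axis) against DAPT over DMSO (horizontal axis) for the 12388 genes tested in both experiments, with the 6 genes in red. The 6 lie in the lower left, from -2.98 to -1.17 on the DAPT axis and from -2.06 to -0.93 on the shHdac3 axis, among other genes (grey) that fell as far.

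The genes closest to each member were found by the Euclidean distance between the 3 log2 fold changes, over 10460 other genes with a mean of 50 or more in each experiment. Ngfr and Cdh23 were each other's closest gene, at a distance of 0.503, and Cdh23 was also closest to Scn4b, at 0.687. P2rx1, an ATP-gated cation channel gene, was closest to Exoc3l4 at 0.374, with log2 fold changes of -2.84 with DAPT, -2.49 with apicidin and -1.76 with shHdac3. Ptcra was among the 3 closest genes of Ngfr, Exoc3l4 and Scn4b, at 0.849, 0.945 and 1.22. Rasal1 lay closest to the Notch target gene Hes1, at 0.430, followed by the integrin gene Itga9 at 0.434 and Bst1 at 0.483. Bst1 lay closest to I730028E13Rik at 0.196, then to Psd at 0.278 and to the adrenomedullin gene Adm at 0.333. The remaining closest genes were Atoh8 for Ngfr (0.814), Gm266 for Exoc3l4 (1.14), and Gm15708 for Cdh23 (0.681). Exoc3l4 had no member among its 3 closest genes, and its nearest member was Ngfr at 1.54. By apicidin response alone, Ngfr, Cdh23, Scn4b and Exoc3l4 had a large one and Rasal1 and Bst1 a small one. These values also served to choose the genes.

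Levels in the control libraries only, DMSO or scrambled hairpin, were compared per length as RPKM (reads scaled to exon length and to the library's reads in genes). In the DMSO libraries of the DAPT experiment these were 22.5 ± 1.59 for Bst1, 19.1 ± 0.17 for Scn4b, 17.2 ± 0.67 for Rasal1, 15.4 ± 0.60 for Ngfr, 5.95 ± 0.03 for Exoc3l4 and 1.14 ± 0.03 for Cdh23 (SD, n = 2). Bst1 had the highest mean and Cdh23 the lowest in each of the 3 control groups, although the scrambled libraries of Bst1 (22.8 ± 0.81) and Ngfr (21.7 ± 0.83) overlapped. The reference level of a gene was not the same in the 3 experiments. Scaled to library depth alone, Scn4b had 95.2 RPM in the DMSO libraries of the DAPT experiment, against 53.0 in those of the apicidin experiment and 61.5 with the scrambled hairpin. In the same order of control groups Cdh23 had 19.3, 37.0 and 25.3 RPM, and Exoc3l4 had 33.6, 24.8 and 48.0 RPM. The highest control mean exceeded the lowest by 1.33-fold for Bst1, 1.35-fold for Rasal1, 1.54-fold for Ngfr, 1.80-fold for Scn4b, 1.92-fold for Cdh23 and 1.94-fold for Exoc3l4. The experiments were normalized separately and differ in handling, so these gaps cannot be told apart from differences between runs.

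**Figure D4:**
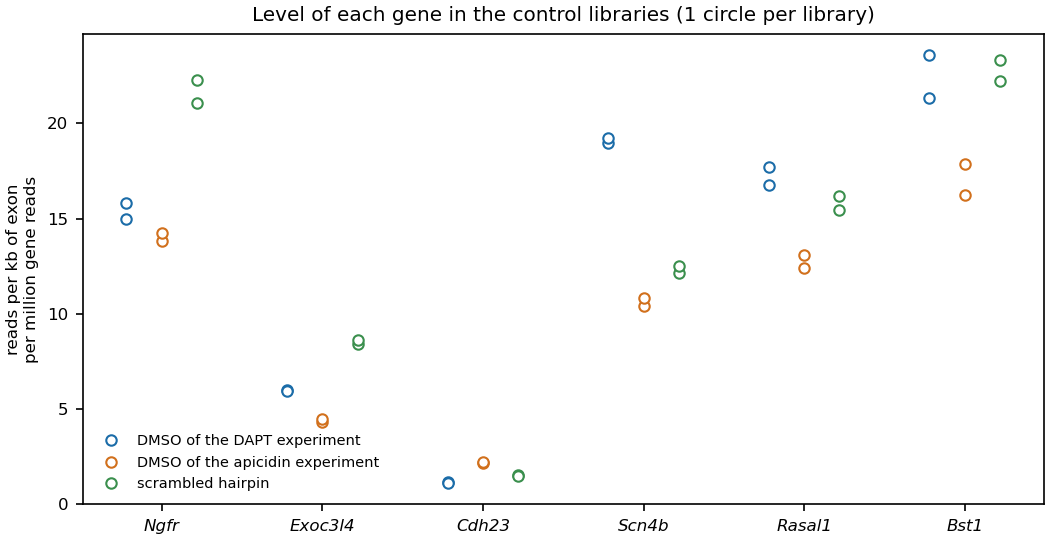
RPKM (reads per kb of exon, scaled to the reads in genes; vertical axis, linear) of each gene in the 6 control libraries, 1 circle per library, coloured by experiment. Bst1 has the highest mean and Cdh23 the lowest in all 3 experiments, with Bst1 and Ngfr overlapping in the scrambled libraries, and the DMSO libraries of the DAPT experiment hold more Scn4b (19.1 on average) than those of the apicidin experiment (10.6) or the scrambled libraries (12.3).

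Genes next to the 6 on the chromosome did not enter their choice and were tested. For each member the 2 nearest genes on either side that were measured in all 3 experiments were taken from the RefSeq gene order, 24 in all. With DAPT 13 of the 24 fell and 4 rose, against 23.1% lower and 20.1% higher among all tested genes. With apicidin 10 fell and 3 rose (19.9% and 18.2% of all), and with shHdac3 15 fell and 1 rose (19.4% and 22.5% of all). The median log2 fold change of the 24 was -0.57, -0.12 and -0.38 in these comparisons, and that of all tested genes was 0.00 in each. Leaving out 1 library at a time gave 11 to 14 falls with DAPT, 7 to 9 with apicidin and 10 to 14 with shHdac3. With DESeq2, 5 of the 24 were lower with apicidin, where it called 1420 of all genes lower, against 2481 with limma. Fits with a library left out also called fewer of all genes lower with apicidin and with shHdac3. The shares above are therefore not the background of these counts. Counts differed between members: around Exoc3l4 3, 4 and 4 of 4 neighbours fell with DAPT, apicidin and shHdac3, while around Cdh23 the falls were those of 2 of 4 genes with shHdac3.

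**Figure D5:**
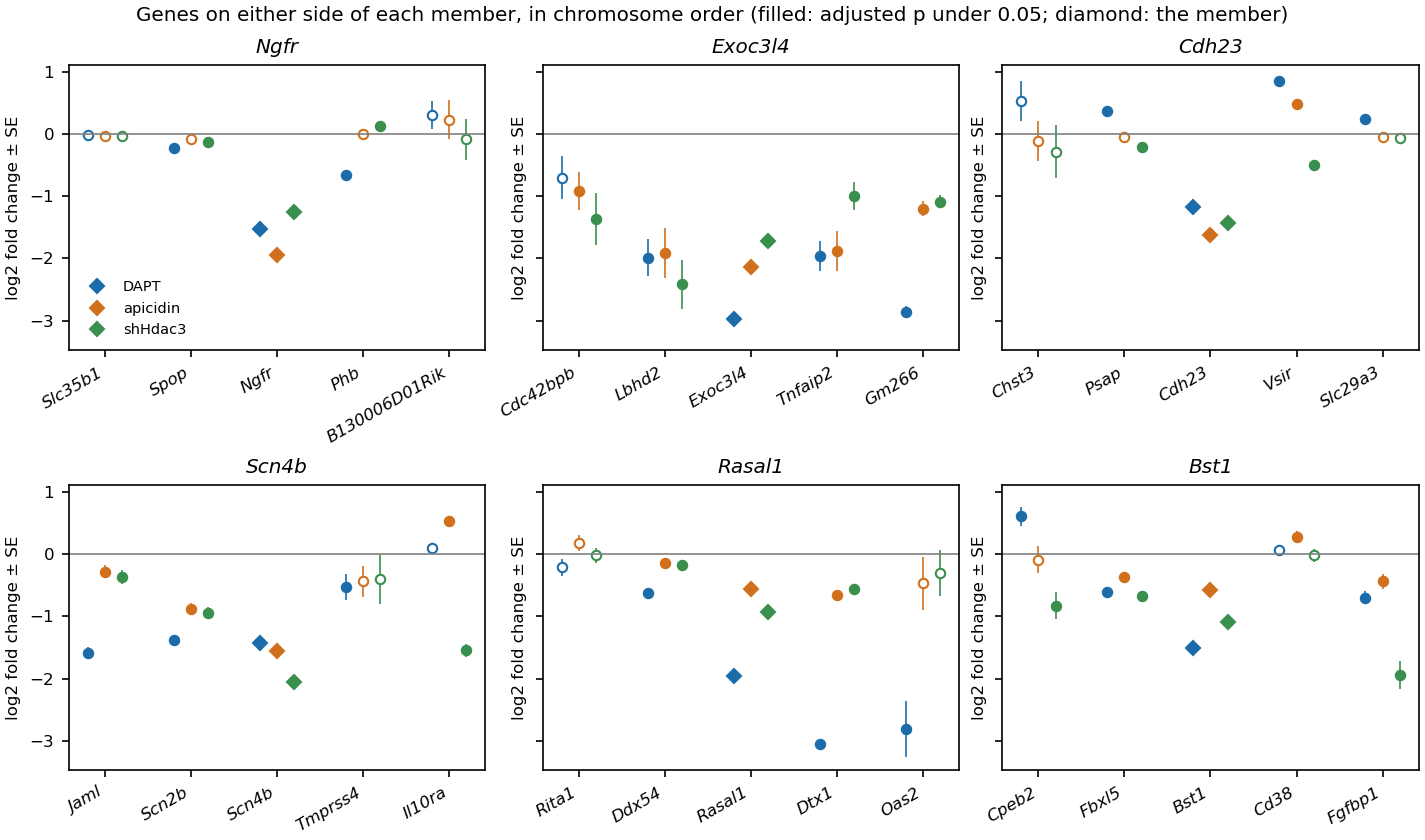
Log2 fold change (vertical axis, bars of 1 SE) of the 2 genes on either side of each member, in chromosome order, with the member as a diamond; filled symbols passed an adjusted p of 0.05 in limma. The neighbours of Exoc3l4 lie below 0 in all 3 comparisons, while those of Ngfr and Cdh23 lie on both sides of 0. With shHdac3 the neighbours of Cdh23 all lie below 0.

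Around Exoc3l4 on chromosome 12, the gene Gm266 had 106 and 108 normalized reads with DAPT, against 792 and 772 with DMSO (-2.86 ± 0.09, adjusted p = 1.22e-16). Gm266 fell also with apicidin, to 101 and 105 against 231 and 245 with DMSO (-1.20 ± 0.13, adjusted p = 9.3e-07), and with shHdac3, to 178 and 189 against 381 and 399.8 with the scrambled hairpin (-1.09 ± 0.10, adjusted p = 2.64e-12). Tnfaip2, which encodes another relative of EXOC3, lies directly beside Exoc3l4 and had few reads: 23.5 and 16.7 with DAPT, against 81.1 and 79.3 with DMSO. It fell with DAPT (-1.96 ± 0.24, adjusted p = 6.89e-07), apicidin (-1.88 ± 0.32, adjusted p = 0.000194) and shHdac3 (-0.99 ± 0.22, adjusted p = 0.000294). Lbhd2, listed under its older symbol A230065H16Rik, had at most 48.2 reads in any library and fell in all 3 comparisons (-1.99 ± 0.30, -1.91 ± 0.41 and -2.42 ± 0.39). The kinase gene Cdc42bpb, with 8.23 to 35.2 reads, fell with shHdac3 (-1.37 ± 0.41, adjusted p = 0.00636) and with apicidin (-0.91 ± 0.31, adjusted p = 0.0254) and was at -0.70 ± 0.35 with DAPT (adjusted p = 0.11). Its apicidin call ended when apicidin replicate 2 (adjusted p = 0.205) or DMSO replicate 2 (0.0614) was left out, and both of its calls were lost with DESeq2 (0.174 with apicidin, 0.0885 with shHdac3).

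Around Scn4b on chromosome 9, its neighbour Scn2b encodes another beta subunit of sodium channels and fell in all 3 comparisons. Scn2b had 291 and 314 normalized reads with DAPT, against 817 and 761 with DMSO (-1.38 ± 0.08, adjusted p = 2.04e-12). It had 219 and 218 with apicidin, against 431 and 378 with DMSO (-0.88 ± 0.10, adjusted p = 1.65e-06), and 258 and 224 with shHdac3, against 448 and 477 with scrambled (-0.94 ± 0.09, adjusted p = 1.75e-11). Jaml, an adhesion molecule gene listed as Amica1, fell most with DAPT (-1.58 ± 0.08, adjusted p = 8.6e-13) and less with apicidin (-0.28 ± 0.10, adjusted p = 0.0344) and shHdac3 (-0.37 ± 0.11, adjusted p = 0.00415). The apicidin call of Jaml was lost without apicidin replicate 1 (0.072), apicidin replicate 2 (0.132) or DMSO replicate 2 (0.241), and its shHdac3 call without shHdac3 replicate 2 (0.0796) or scrambled replicate 1 (0.0524). With DESeq2 both of these calls of Jaml were lost (0.182 and 0.0826). On the other side, the interleukin-10 receptor gene Il10ra fell with shHdac3, to 172 and 167 against 473 and 523 with the scrambled hairpin (-1.55 ± 0.10, adjusted p = 5.62e-18). Il10ra rose with apicidin, to 1329 and 1358 against 953 and 903 with DMSO (0.53 ± 0.05, adjusted p = 5.01e-07), and was at 0.10 ± 0.06 with DAPT (adjusted p = 0.192). Tmprss4, a membrane protease gene with at most 66.7 reads, passed only with DAPT (-0.53 ± 0.21, adjusted p = 0.045), which did not hold without DAPT replicate 2 (0.239), DMSO replicate 1 (0.168) or DMSO replicate 2 (0.0716) or with DESeq2 (0.265).

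Around Rasal1 on chromosome 5 lies Dtx1, a ubiquitin ligase gene and known Notch target, which is the nearest tested gene on one side. Dtx1 had 1959 and 1944 normalized reads with DAPT, against 16625 and 15824 with DMSO (-3.05 ± 0.04, adjusted p = 3.15e-24). It had 4844 and 4798 with apicidin, against 7166 and 8074 with DMSO (-0.66 ± 0.05), and 6272 and 6199 with shHdac3, against 8887 and 9399 with scrambled (-0.55 ± 0.05). In both Dtx1 and Rasal1, DAPT gave the deepest of the 3 falls. The RNA helicase gene Ddx54, on the other side, fell with DAPT (-0.62 ± 0.04, adjusted p = 4.57e-12), shHdac3 (-0.17 ± 0.04, adjusted p = 0.00155) and apicidin (-0.13 ± 0.04, adjusted p = 0.0232), the last lost without apicidin replicate 1 (0.099), apicidin replicate 2 (0.0904) or DMSO replicate 2 (0.21) and with DESeq2 (0.0988). The antiviral gene Oas2 fell with DAPT from a low level, with 2.14 and 4.63 reads against 29.8 and 27.4 with DMSO (-2.81 ± 0.45, adjusted p = 2.38e-05), and passed in neither of the other comparisons. Rita1, which encodes an RBPJ-binding protein and is listed as 1110008J03Rik, passed in none of the 3 (adjusted p of 0.205, 0.287 and 0.925).

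Around Bst1, also on chromosome 5, Fbxl5 encodes the iron-sensing subunit of a ubiquitin ligase and fell with DAPT (-0.61 ± 0.04), apicidin (-0.37 ± 0.05) and shHdac3 (-0.67 ± 0.05). Fgfbp1, whose product carries fibroblast growth factors, had 23.7 and 26.1 normalized reads with shHdac3, against 106 and 90.9 with scrambled (-1.94 ± 0.23, adjusted p = 1.41e-09). Fgfbp1 also fell with DAPT (-0.70 ± 0.10, adjusted p = 9.52e-06) and apicidin (-0.44 ± 0.12, adjusted p = 0.00692), with the apicidin call lost without apicidin replicate 1 (0.0769), with DESeq2 (0.0661) or by the adjusted p in the authors' deposited table (0.0937). Cd38, the paralog of Bst1 with the same enzymatic activity, lies directly beside it and was called lower in none of the 3 comparisons. Cd38 had 435 and 468 reads with DAPT, against 425 and 435 with DMSO (0.07 ± 0.08, adjusted p = 0.51), and 287 and 336 with shHdac3, against 303 and 326 with scrambled (-0.02 ± 0.10, adjusted p = 0.904). With apicidin Cd38 was higher (0.28 ± 0.09, adjusted p = 0.0251), which did not hold without apicidin replicate 1 (0.12), apicidin replicate 2 (0.0536) or DMSO replicate 2 (0.214) or with DESeq2 (0.15). Cpeb2, an RNA-binding protein gene, rose with DAPT (0.61 ± 0.15, adjusted p = 0.00175) and fell with shHdac3 (-0.82 ± 0.22, adjusted p = 0.00164), where the call was lost without scrambled replicate 1 (0.0909) or by the adjusted p in the authors' deposited table (0.0677).

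Around Ngfr on chromosome 11, 2 of 4 neighbours fell with DAPT, 0 with apicidin and 1 with shHdac3. Around Cdh23 on chromosome 10 these counts were 0, 0 and 2 of 4. Beside Ngfr, Phb, the gene of the mitochondrial protein prohibitin, fell with DAPT (-0.65 ± 0.04, adjusted p = 6.35e-12) and rose slightly with shHdac3 (0.13 ± 0.05, adjusted p = 0.0174), which did not hold without shHdac3 replicate 1 (0.116) or scrambled replicate 2 (0.297) or with DESeq2 (0.134). Spop, a ubiquitin ligase adaptor gene, fell with DAPT (-0.22 ± 0.04, adjusted p = 0.000317) and with shHdac3 (-0.13 ± 0.05, adjusted p = 0.0342), where leaving out any 1 of the 4 libraries ended the call (0.0748 without shHdac3 replicate 1, 0.0903 without shHdac3 replicate 2, 0.15 without scrambled replicate 1, 0.071 without scrambled replicate 2), as did DESeq2 (0.187). Slc35b1 and B130006D01Rik passed in no comparison. The gene of the checkpoint receptor VISTA, Vsir, lies within Cdh23 on the opposite strand without exonic overlap and is listed as 4632428N05Rik. Vsir rose with DAPT, to 2804 and 2705 against 1506 and 1537 with DMSO (0.86 ± 0.05, adjusted p = 6.68e-13), and with apicidin, to 1342 and 1307 against 919 and 972 with DMSO (0.49 ± 0.05, adjusted p = 1.65e-06), and fell with shHdac3, to 709 and 694 against 950.3 and 1037 with the scrambled hairpin (-0.50 ± 0.06, adjusted p = 7.31e-09). Psap, a lysosomal protein gene, rose with DAPT (0.37 ± 0.04, adjusted p = 1.61e-08) and fell with shHdac3 (-0.21 ± 0.05, adjusted p = 0.000298). Slc29a3, a nucleoside transporter gene, rose with DAPT (0.25 ± 0.06, adjusted p = 0.00374, and 0.0607 without DAPT replicate 2 or 0.0541 in the authors' deposited table), and Chst3 passed in no comparison.

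Genes listed with the members by function or family, here called partners, were tested next. Over 6 such lists without the members, 16 of 84 tested genes fell and 22 rose with DAPT, 19 of 82 fell and 16 rose with apicidin, and 32 of 86 fell and 9 rose with shHdac3. Over all tested genes the shares of falls were 23.1%, 19.9% and 19.4%, and those of rises 20.1%, 18.2% and 22.5%. The medians of the lists together were 0.01, 0.01 and -0.10. With DESeq2 20 of the 86 were lower and 4 higher with shHdac3, and 7 of the 82 higher with apicidin. Of all genes DESeq2 called 1393 lower and 1695 higher with shHdac3, against 2417 and 2811 with limma. With apicidin it called 1239 higher, against 2265 with limma. Without DAPT replicate 2 the partners higher with DAPT numbered 14, and without apicidin replicate 2 those higher with apicidin numbered 9. Tnfaip2, Scn2b and Cd38 stand both among the neighbours and in these lists.

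Of the partners of Ngfr in neurotrophin signalling, 2 of 16 fell and 6 rose with DAPT (median 0.10), 3 of 15 fell and 2 rose with apicidin (0.01), and 7 of 15 fell with shHdac3 (-0.23). Sorcs2, a sorting receptor that pairs with p75, rose with DAPT, to 493 and 484 normalized reads against 275 and 262 with DMSO (0.86 ± 0.09, adjusted p = 2.71e-08). Sorcs2 fell with apicidin (-0.55 ± 0.12, adjusted p = 0.00135) and with shHdac3 (-0.70 ± 0.13, adjusted p = 1.16e-05). The related Sort1, the sortilin gene, had the same signs, at 0.19 ± 0.05 (adjusted p = 0.00393), -0.44 ± 0.06 (9.93e-06) and -0.35 ± 0.06 (3.36e-06). Sorcs3 rose with DAPT, to 47.0 and 48.1 reads against 10.3 and 11.7 with DMSO (2.02 ± 0.30, adjusted p = 8.86e-06), as did the neurotrophin receptor gene Ntrk3 (0.98 ± 0.23, adjusted p = 0.00132).

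Of the other sodium channel genes, 3 of 13 listed were high enough to be tested. Scn2b has been described above as a neighbour. Scn2a1, which encodes a pore-forming subunit, passed in none of the 3 comparisons.

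Of the tip link and cadherin genes listed with Cdh23, 3 of 9 tested fell and 1 rose with DAPT (median -0.15), 2 of 9 fell and 1 rose with apicidin (-0.05), and 7 of 11 fell with shHdac3 (-0.27). Cdh23's tip link partner Pcdh15 was too low to be tested. Cdh1, the E-cadherin gene, had 64.1 and 50.9 normalized reads with DAPT, against 575 and 579.6 with DMSO (-3.31 ± 0.13, adjusted p = 1.62e-15). Cdh1 had 53.6 and 59.1 with apicidin, against 328 and 316 with DMSO (-2.50 ± 0.14, adjusted p = 2.37e-10). With shHdac3 its fall was small (-0.24 ± 0.09, adjusted p = 0.0374) and did not hold without shHdac3 replicate 2 (0.184) or scrambled replicate 1 (0.274) or with DESeq2 (0.236). Ush1c, whose product anchors the upper tip link to actin, had 5.14 and 9.39 reads with shHdac3, against 34.7 and 25.4 with scrambled (-1.94 ± 0.41, adjusted p = 0.000139). Cib2, another gene of the hair cell transduction complex, fell with shHdac3 as well (-1.76 ± 0.31, adjusted p = 8.25e-06), as did the myosin gene Myo7a (-0.56 ± 0.09, adjusted p = 8.28e-07). Ush1c and Cib2 were too low to be tested in the other experiments. Ctnna1, the alpha-catenin gene, fell with apicidin (-1.11 ± 0.06, adjusted p = 2.84e-10) and shHdac3 (-0.27 ± 0.05, adjusted p = 3.63e-05). Ctnna1 rose with DAPT (0.21 ± 0.05, adjusted p = 0.00105), which did not hold without DAPT replicate 2 (0.0592).

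Of the enzymes and targets of NAD and cyclic ADP-ribose metabolism listed with Bst1, 6 of 21 fell and 1 rose with DAPT (median -0.03), 3 of 20 fell and 3 rose with apicidin (0.04), and 3 of 22 fell and 4 rose with shHdac3 (-0.004). Nampt, the rate-limiting enzyme of NAD salvage, fell with DAPT (-0.43 ± 0.04, adjusted p = 2.8e-09) and shHdac3 (-0.18 ± 0.05, adjusted p = 0.00286). The shHdac3 call of Nampt was lost by the adjusted p in the authors' deposited table (0.0602). The ryanodine receptor gene Ryr1, a calcium channel that cyclic ADP-ribose is known to modulate, rose with apicidin (0.50 ± 0.09, adjusted p = 0.00044) and fell with shHdac3 (-0.75 ± 0.09, adjusted p = 1.89e-09). The NAD-dependent deacetylase gene Sirt1 moved the other way, falling with apicidin (-0.39 ± 0.06, adjusted p = 0.000107) and rising with shHdac3 (0.33 ± 0.06, adjusted p = 3.48e-05).

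Of the exocyst subunits, their relatives and regulators listed with Exoc3l4, 2 of 15 fell and 6 rose with DAPT (median 0.07), 6 fell and 3 rose with apicidin (-0.03), and 8 fell and 4 rose with shHdac3 (-0.13). Exoc4 rose with DAPT (0.28 ± 0.04, adjusted p = 2.79e-06) and fell with shHdac3 (-0.42 ± 0.05, adjusted p = 2.79e-10). Its small fall with apicidin (-0.13 ± 0.05, adjusted p = 0.0349) did not hold with DESeq2 (0.182) or by the adjusted p in the authors' deposited table (0.195). Nor did the call hold without apicidin replicate 1 (log2 fold change -0.10), apicidin replicate 2 (-0.15) or DMSO replicate 1 (-0.09). Exoc6 fell with apicidin (-0.60 ± 0.07, adjusted p = 4.51e-06) and with DAPT (-0.24 ± 0.06, adjusted p = 0.000968). Exoc6b fell with shHdac3 (-0.75 ± 0.24, adjusted p = 0.0111), but not without shHdac3 replicate 1 (0.176), without scrambled replicate 2 (0.12) or with DESeq2 (0.145). Exoc3l, another relative of EXOC3, rose with DAPT (0.42 ± 0.08, adjusted p = 0.00029) and with shHdac3 (0.50 ± 0.10, adjusted p = 4.47e-05). With apicidin Exoc3l fell (-0.29 ± 0.10, adjusted p = 0.0212), a call lost with DESeq2 (0.137) and by the adjusted p in the authors' deposited table (0.173). The call also ended without apicidin replicate 1 (log2 fold change -0.25) or DMSO replicate 2 (-0.21). Tnfaip2 fell in all 3 comparisons. Of the Ras regulators listed with Rasal1, 2 of 20 fell and 7 rose with DAPT (median 0.01), 3 fell and 7 rose with apicidin (0.08), and 5 fell and 1 rose with shHdac3 (-0.07). Its relative Rasal3 rose with DAPT (0.56 ± 0.04, adjusted p = 7.44e-11). The Ras activator gene Rasgrp1 rose with DAPT (0.75 ± 0.05, adjusted p = 1.61e-11) and apicidin (0.76 ± 0.05, adjusted p = 8.57e-10), and Dab2ip, another Ras inhibitor gene, rose with DAPT (0.48 ± 0.04, adjusted p = 2.36e-09) and fell with apicidin (-0.42 ± 0.06, adjusted p = 2.58e-05) and shHdac3 (-0.45 ± 0.05, adjusted p = 5.62e-10).

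Promoter letters were compared for Ngfr, Scn4b, Cdh23 and Exoc3l4, the 4 members with an entry in the RefSeq promoter table, which reaches from 250 bases before to 50 after each start. Rasal1 and Bst1 are named only. The RBPJ core TGGGAA, read on both strands, was in 0 of the 4 and in 25.6% of all 32851 windows. The RUNX core TGTGGT was in 0 of the 4 and in 16.8% of all windows, and the E-box CAGCTG, which reads the same on both strands, was in Ngfr alone of the 4 and in 16.3% of all windows. A match is a run of letters and not a binding site, and its absence says only that these letters are not in these windows.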

How the data were processed

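RNA of Beko cells was converted to ribosomal RNA-depleted libraries with a kit that keeps strand, per the labels' protocols, and the submitters' processing notes name FastQC, Bowtie2, TopHat, DESeq2 and the mm9 build. How reads were counted, on which annotation and whether by strand, is not given in the sources used here. For each experiment the authors deposited a table that, per the file headers, gives every gene a normalized signal in each library, a log2 fold change and p-values, raw and adjusted. The deposited signal equals a whole number of reads over a constant of the library: 100% of values were whole multiples within a relative tolerance of 1e-06.

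The 6 genes, the gene lists and the rule for neighbours were chosen with earlier results of these data known. Each experiment was tested on its own 4 libraries with limma 3.58.1 (R 4.3.3, intensity trend, two-sided, Benjamini-Hochberg over all tested genes at 0.05) on log2(value + 1), for genes at 10 or more in at least 2 libraries. The pseudocount understates the change of low genes. Every adjusted p is from limma unless another tool is named. The lists of partners (neurotrophin receptor, sodium channel, tip link and cadherin, NAD and cyclic ADP-ribose, exocyst, Ras regulators) were compiled by hand from general knowledge and are described by counts and medians. A list of 22 Notch target genes, of which 20 were tested, had 13 lower and 6 higher with DAPT. It had 12 lower and 5 higher with apicidin, and 12 lower and 3 higher with shHdac3. Among all tested genes 23.1%, 19.9% and 19.4% were lower and 20.1%, 18.2% and 22.5% higher in these comparisons. Named genes are the members, Hdac3, all neighbours, the 3 genes most like each member, those next to the members in the ranking of joint falls, and up to 4 genes past the threshold with the largest changes per partner list and comparison, though a few are not reported here. Exon lengths and overlaps come from GENCODE M21, and neighbour order, older symbols (23191 of 23366 symbols matched) and promoters from RefSeq on GRCm38.p6, so no coordinates of the files' own build are given. The tests were checked on simulated data. Alternatives were other pseudocounts (0.5 and 5), no filter or a filter at 50, TMM and upper-quartile factors, edgeR 4.0.16 and DESeq2 1.42.0 on recovered reads, a replicate block, each library left out and, chosen after seeing the data, the authors' adjusted p.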

Additional observations from a re-analysis of the deposited data

Results flagged for a closer look

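Several neighbours of the 6 genes moved in opposite directions in different experiments, with both treated libraries on one side of both controls each time. None of these differences between experiments was tested, and 2 libraries a group allow no test for an outlying library. Vsir (4632428N05Rik), which lies within Cdh23, had a log2 fold change of 0.86 with DAPT and 0.49 with apicidin, against -0.50 with shHdac3. Il10ra, near Scn4b, had 0.53 with apicidin and -1.55 with shHdac3. Cpeb2, near Bst1, had 0.61 with DAPT and -0.82 with shHdac3. Psap, beside Cdh23, had 0.37 with DAPT and -0.21 with shHdac3, and Phb, beside Ngfr, had -0.65 with DAPT and 0.13 with shHdac3.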

How the results depend on the processing

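All 252 recomputed log2 fold changes of the 6 genes stayed below 0, between -3.08 and -0.54. Since the genes were chosen for falls in these same libraries, nothing is read from their sign. Of 155 calls of neighbours, partners and Hdac3, 61 were lost under at least 1 alternative (233 of 2139 values) and 0 reversed. Among those lost was the small fall of Hdac3 with apicidin (-0.13 ± 0.04, adjusted p = 0.0271, and 0.17 with DESeq2). Genes called with apicidin numbered 2659 (1420 lower) with DESeq2 and 2465 (1329 lower) by the authors' deposited adjusted p, against 4746 (2481 lower) with limma. Genes called with shHdac3 numbered 3088 (1393 lower) and 2961 (1267 lower) by these tools, against 5228 (2417 lower). With either tool 5 neighbours were lower with apicidin and 0 higher with shHdac3. Partners higher with apicidin numbered 7 with DESeq2 and 6 by the authors' adjusted p, partners lower with shHdac3 20 and 18, and partners higher with shHdac3 4 and 4. No filter and upper-quartile factors also gave 0 neighbours higher with shHdac3. The edgeR test on recovered reads called 5570, 4765 and 5314 genes. The cause was not tested.

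With 1 library left out, partners higher with DAPT ranged from 14 to 25, partners higher with apicidin from 9 to 17, and neighbours higher with shHdac3 from 0 to 1. The labels do not say whether same-numbered libraries were paired, and the deviations of same-numbered libraries correlated at 0.02, 0.04 and 0.01. With the replicate block 5978, 4811 and 5327 genes were called, against 5546, 4746 and 5228 without it. The members rest on 136 to 3951 reads per library, whereas Lbhd2, Cdc42bpb, Tnfaip2 and Oas2 rest on few, which limits the precision of their changes.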
